A study of Mus musculus with 35 samples.

Results

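The Hox genes encode homeodomain transcription factors that give cells of the embryo their position along the body axis. Mouse has 4 clusters of them, and every gene whose name is Hoxa, Hoxb, Hoxc or Hoxd followed by a number was taken from the GRCm38 annotation: 39 genes met that rule, 38 are described here, and 49550 genes were tested in all. HoxA (10 of the described genes) spans chr6:52162417-52260880, HoxB (10 genes) chr11:96194316-96368254, HoxC (9 genes) chr15:102921131-103036856 and HoxD (9 genes) chr2:74668225-74765142. In each cluster all genes are transcribed in one direction, from the posterior end (group 13) towards the anterior end. Groups 1 to 4 are called anterior here (11 genes), 5 to 8 central (11 genes) and 9 to 13 posterior (16 genes). In vertebrate embryos the clusters open and become active in that spatial order, anterior genes first, under retinoic acid, Wnt and FGF signals. Before activation they are covered by Polycomb group proteins over CpG-rich DNA that is largely free of methylation.

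The assay was ATAC-seq: the Tn5 transposase cuts open chromatin, so the values say how often a region was cut and not how much RNA a gene made. The mouse embryonic stem cells (ESC) were grown in 2i/Lif medium, which holds them in a naive state. They were sampled at day 0 as ESC and at days 1 and 2 as epiblast-like cells (EpiLC), a formative state on the way out of naive pluripotency. The 4 genotypes were TET_WT, TET1/2/3_KO (TET_KO below; the TET enzymes oxidise methylated cytosine), DNMT_WT and DNMT1/3a/3b_KO (DNMT_KO below; the DNMT enzymes methylate cytosine), each knockout with its own parental wild-type line. Every genotype and day had 3 libraries, apart from TET_KO at day 2, which had 2 (replicates 1 and 3). The labels name no second line of any genotype and do not say whether each genotype was 1 clone. A knockout therefore cannot be told apart from other differences between its cells and those of its parent. The parts of the Tet and Dnmt genes that were removed are not given in the sources used here, so the tiles over those genes check nothing about the labels. The labels do not say whether replicates were separate cultures. The p-values therefore weigh differences against the spread of these libraries only, which may be technical.

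Start sites were the most accessible places in the clusters, so 5 promoters that differ in CpG content or accessibility are printed first. RefSeq (GRCm38.p6) gave 24 promoters for 22 of the 38 genes, each from 250 bases before to 50 bases after a transcription start. They are written 5′ to 3′ on the gene's strand, with every CG pair, the site of DNA methylation, in capitals.
Hoxa13 (chr6:52260831-52261130, minus strand): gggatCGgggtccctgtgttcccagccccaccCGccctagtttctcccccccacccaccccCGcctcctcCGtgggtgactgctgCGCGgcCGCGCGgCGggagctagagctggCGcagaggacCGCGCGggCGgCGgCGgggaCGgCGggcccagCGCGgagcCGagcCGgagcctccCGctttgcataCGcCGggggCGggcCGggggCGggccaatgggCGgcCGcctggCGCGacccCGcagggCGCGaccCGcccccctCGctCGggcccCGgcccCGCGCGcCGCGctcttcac
Hoxb4 (chr11:96318017-96318316, plus strand): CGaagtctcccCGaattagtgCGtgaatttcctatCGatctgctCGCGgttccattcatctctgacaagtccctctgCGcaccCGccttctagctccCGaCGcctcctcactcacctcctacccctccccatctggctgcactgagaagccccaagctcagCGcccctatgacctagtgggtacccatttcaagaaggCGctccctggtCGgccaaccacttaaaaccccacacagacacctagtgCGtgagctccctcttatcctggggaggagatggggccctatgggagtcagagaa
Hoxd8 (chr2:74704365-74704664, plus strand): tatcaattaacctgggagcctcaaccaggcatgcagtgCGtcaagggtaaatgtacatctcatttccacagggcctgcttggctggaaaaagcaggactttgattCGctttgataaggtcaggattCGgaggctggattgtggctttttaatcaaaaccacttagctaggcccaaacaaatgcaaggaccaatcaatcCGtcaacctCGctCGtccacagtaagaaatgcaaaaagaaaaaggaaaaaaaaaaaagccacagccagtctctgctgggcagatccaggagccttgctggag
Hoxa9 (chr6:52227321-52227620, minus strand): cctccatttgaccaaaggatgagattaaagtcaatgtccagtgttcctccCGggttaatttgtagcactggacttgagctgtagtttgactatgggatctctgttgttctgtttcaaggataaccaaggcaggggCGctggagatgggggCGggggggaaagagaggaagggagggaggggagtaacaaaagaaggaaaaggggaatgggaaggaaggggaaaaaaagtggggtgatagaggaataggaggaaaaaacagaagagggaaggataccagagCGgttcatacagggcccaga
Hoxd4 (chr2:74721728-74722027, plus strand): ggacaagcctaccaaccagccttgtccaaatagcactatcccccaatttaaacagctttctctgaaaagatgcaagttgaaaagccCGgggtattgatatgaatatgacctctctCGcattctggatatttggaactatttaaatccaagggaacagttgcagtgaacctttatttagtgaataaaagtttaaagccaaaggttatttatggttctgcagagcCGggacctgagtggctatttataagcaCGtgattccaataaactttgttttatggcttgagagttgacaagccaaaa

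The Hox promoters held 4 to 45 CG pairs (median 14.5), against a median of 7 over all 32619 promoters of 26794 genes, and their median GC content was 57.7% against 53%. All 24 held at least 1 CG, as did 94.7% of all promoters. Accessibility of the 2-kb tile at a start is given here as a fold over the genome: the reads in the tile divided by the mean per tile of the same library. It was averaged over the libraries of each of the 12 groups of genotype and day, and then over the groups. By that measure the Hox promoters had a median of 2.64, against 2.12 for all promoters. Hoxa13, which patterns the hand, foot and urogenital tract, had the most CG pairs (45, the 98.1st percentile of all promoters) and stood at 3.54 (the 65.6th percentile). Hoxd13, its counterpart in HoxD, had 37 CG pairs (94.4th percentile) and 3.31 (63.2nd percentile). In contrast, the Hoxd8 promoter with 6 CG pairs had a tile at 3.87, the highest of these 24 promoters. Hoxd4, a hindbrain and neck gene, had 4 CG pairs and the lowest tile, at 1.08 (24.5th percentile). Hoxa9, a regulator of blood progenitors, also had 4 CG pairs but stood at 2.12 (50.0th percentile). In 20 of the 24 promoters the accessibility percentile was below the percentile of CG content. The same count was not made over all promoters, so it cannot be read as particular to Hox promoters.

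The clusters held many of the more accessible tiles of the genome. Of the 246 tiles of 2 kb that cover the clusters, 131 (53.3%) were among the 10% of tiles with the highest mean over all libraries. That share was 74.0% in HoxA (37 of 50 tiles), 46.6% in HoxB (41 of 88), 50.8% in HoxC (30 of 59) and 46.9% in HoxD (23 of 49). Tiles at a start site held the highest values, with a median of 2.78-fold over the genome and 35 of 40 in the top 10%. Tiles elsewhere in a gene had a median of 1.69-fold (65 of 127 in the top 10%), and tiles between genes 1.38-fold (31 of 79). The highest tile of all lay over the start of Hoxc13 (chr15:102920001-102922000), a gene of hair and nail, at 8.01-fold. The start tiles of Hoxb9 (4.47-fold, chr11:96270001-96272000), Hoxd8 (3.87-fold, chr2:74704001-74706000) and Hoxa5 (3.82-fold, chr6:52204001-52206000) led the other clusters. The lowest start tiles were those of Hoxd4 (1.08-fold), Hoxb3 (1.32-fold), Hoxb2 (1.33-fold) and Hoxd3 (1.34-fold), all anterior genes. Next came the central gene Hoxb6 at 1.36-fold. For genes without a RefSeq promoter, Hoxb2, Hoxb3, Hoxb6, Hoxb9 and Hoxc13 among them, the start was taken as the upstream end of the annotated gene. Other anterior start tiles stood above the median of start tiles, at 3.59-fold for Hoxd1, 3.48-fold for Hoxc4, 3.16-fold for Hoxa4 and 2.91-fold for Hoxb4.

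**Figure D1:**
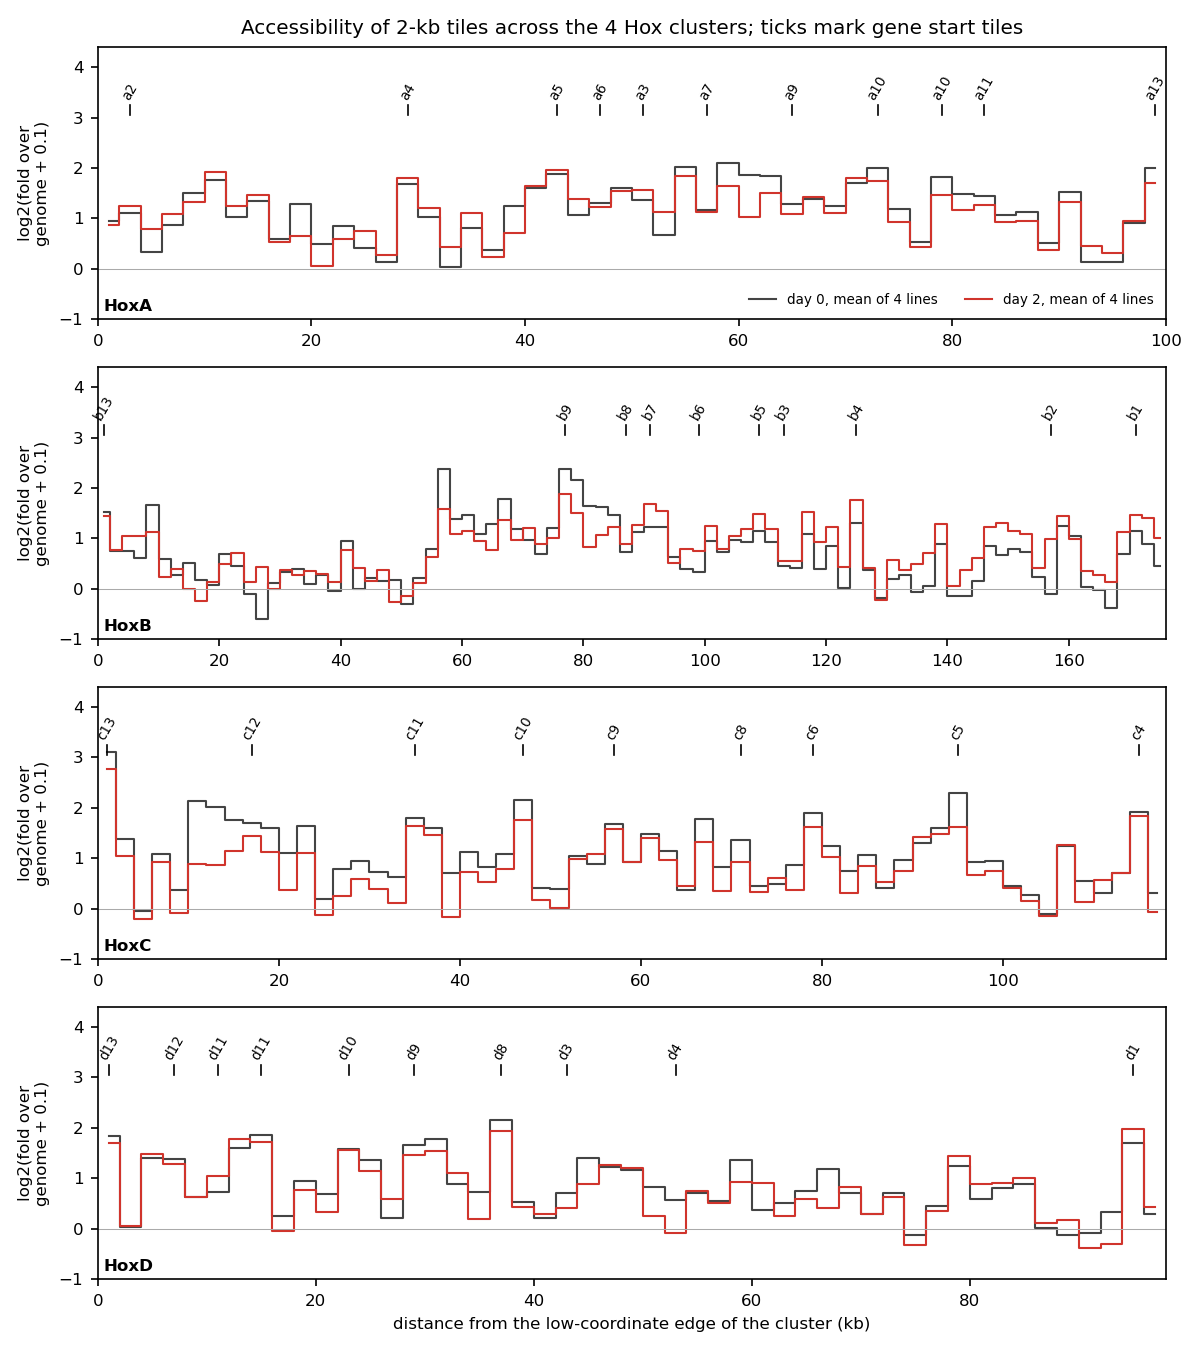
Accessibility along the 4 clusters, as log2(fold over genome + 0.1) in 2-kb tiles (y axis) against distance in kb from the low-coordinate edge of each cluster (x axis). Black lines are day 0 and red lines day 2, each the mean of the 4 genotypes, and ticks mark tiles with a start site. Peaks sit at start tiles, the tallest over Hoxc13 at 8.01-fold, and the lines of both days run close together over most of each cluster.

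A value per gene was made by averaging RPKM (reads scaled to tile length and library size) over all tiles that overlap it, taking log2(RPKM + 0.1) and giving all libraries the same distribution (quantile normalisation). All levels and changes of genes below are on that log2 scale, which understates the change of low values. The median gene of a library stood near -0.60, and the means of all 38 Hox genes lay above it, from the 66.6th to the 93.4th percentile of all genes (median level 0.09). By cluster the median was 0.28 in HoxA, -0.03 in HoxB, 0.10 in HoxC and 0.07 in HoxD. Along the clusters it was -0.02 for anterior, 0.20 for central and 0.22 for posterior genes. Hoxb9, which patterns the thoracic skeleton, had the highest mean level (0.61, from -0.51 to 1.31 over the 35 libraries), followed by Hoxc11 (0.53, -0.07 to 1.27). Hoxa5, a gene of neck and lung, averaged 0.51 (-0.85 to 1.23), and Hoxd8 0.32 (-0.69 to 1.11). The lowest member of each cluster was an anterior gene. These were Hoxb3 (-0.34, from -0.81 to 0.12), Hoxd4 (-0.33, -1.10 to 0.18), Hoxc4 (-0.31, -1.0 to 0.35) and Hoxa2 (0.02, -0.91 to 0.92). Group means (± SD over 2 or 3 libraries) of Hoxa5 ran from -0.38 ± 0.42 (DNMT_WT at day 2) to 0.96 ± 0.24 (TET_WT at day 0). Those of Hoxc11, a gene of the hind limb, ran from 0.14 ± 0.27 (DNMT_KO at day 2) to 0.85 ± 0.36 (DNMT_WT at day 2). For Hoxd8 they ran from -0.17 ± 0.23 (DNMT_WT at day 2) to 0.73 ± 0.03 (TET_KO at day 2). Among the low genes, Hoxd4 ran from -0.74 ± 0.34 (DNMT_KO at day 2) to -0.09 ± 0.38 (TET_KO at day 2) and Hoxc4 from -0.51 ± 0.75 (DNMT_WT at day 1) to -0.13 ± 0.15 (TET_KO at day 0). The range of each of these genes over libraries was wider than the gap between it and its neighbours in the order. Tiles are 2 kb wide, and 13 members share a tile with another member (Hoxa3 with Hoxa4, Hoxa5 and Hoxa6; Hoxb3 with Hoxb4 and Hoxb5, for example), so their values are not independent. Antisense and microRNA genes inside the clusters share tiles with members too, and their signals cannot be told apart.

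**Figure D2:**
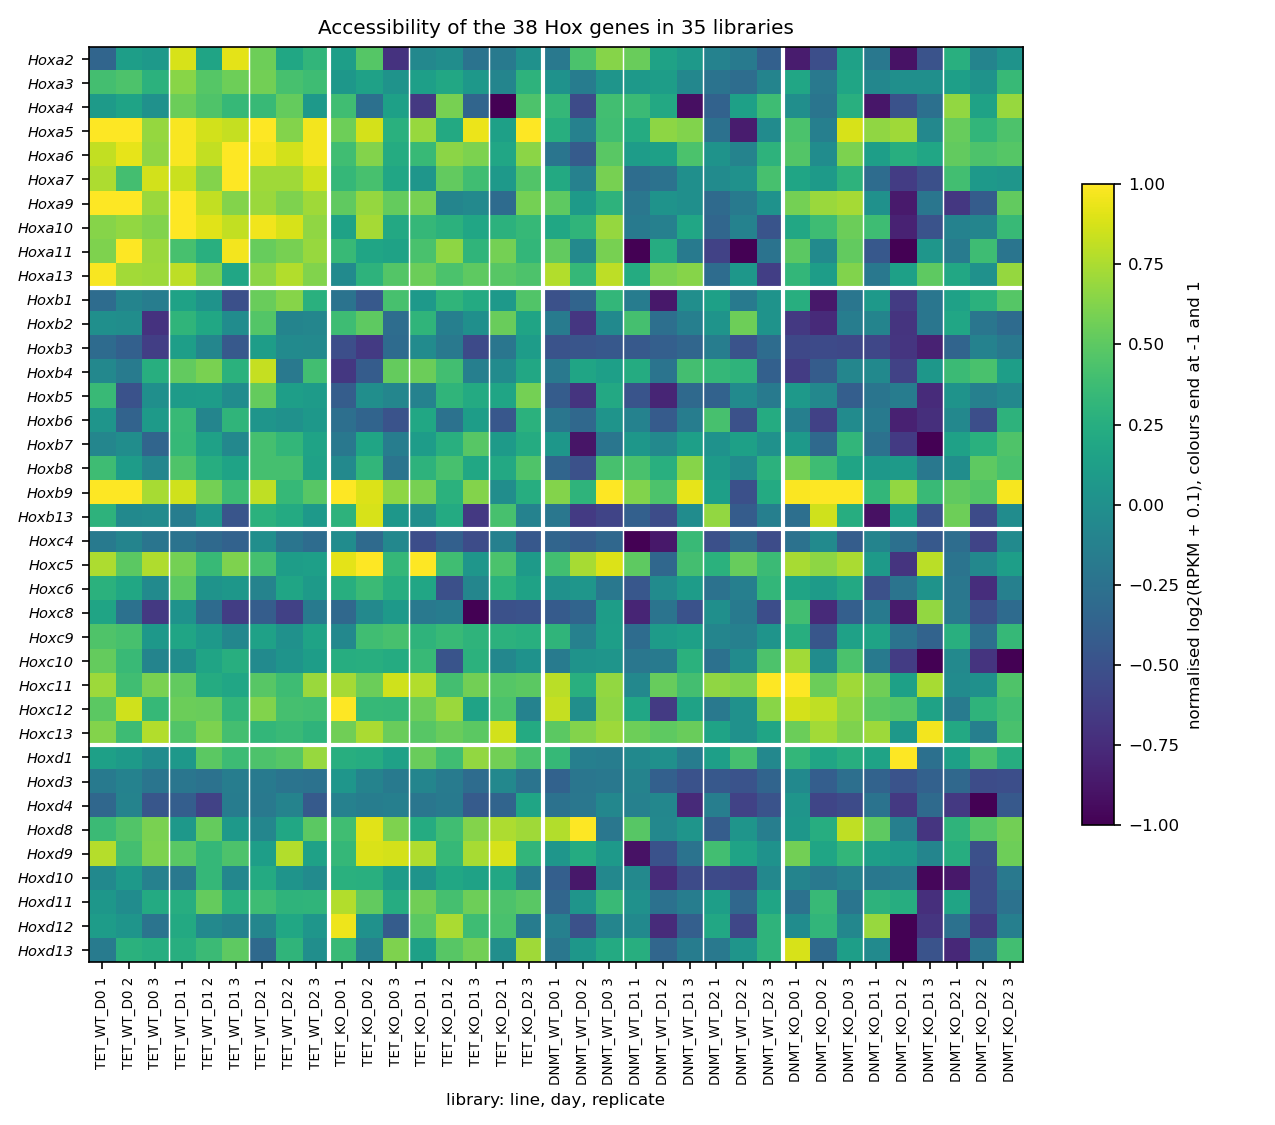
Levels of the 38 described Hox genes (rows, by cluster) in the 35 libraries (columns, by genotype and day), as quantile-normalised log2(RPKM + 0.1); colours end at -1 and 1. Hoxa3, Hoxa6 and Hoxa9 are higher in TET_WT columns than in TET_KO columns of the same day, and Hoxb9 changes by -0.61 from day 0 to day 2 columns.

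The libraries held 4172681 to 23686796 reads over all tiles, with 10350700 to 23686796 in TET_WT at day 0. On autosomes and X the smallest library held 3204696 (DNMT_KO at day 1, replicate 3). The median top-10% tile held 5 to 39 reads in a library, so single tiles are imprecise. At day 1 mitochondrial DNA took 5.62 to 46.8% of reads, against 0% in the deposited values at days 0 and 2. Whether those reads were removed before deposit was not tested. The reads of all tiles summed to 2.03 to 2.05 times the total behind the RPKM at day 1. At days 0 and 2 they summed to 1.15 times in the TET and 1.02 times in the DNMT genotypes. Day 1 was therefore compared only between genotypes of the same day. The cell states were checked on markers. Of 10 naive genes, 7 fell from day 0 to day 2 over the 4 genotypes and none rose (Tfcp2l1 -1.07, Tdh -0.91, Tbx3 -0.79). Their mean level was 0.61 to 0.83 in day 0 libraries and 0.09 to 0.40 at day 2. Of 8 formative genes 5 rose and none fell (Utf1 0.60, Pou3f1 0.45, Dnmt3b 0.33), with a mean level of -0.07 to 0.20 at day 0 and 0.23 to 0.60 at day 2. In the same comparison none of 8 fibroblast feeder, 7 primitive streak or 6 neuroectoderm genes was called by limma (1, 2 and 1 had an unadjusted p under 0.05, and limma voom called none), and primitive endoderm had 1 of 7 higher (Sox7) and 1 lower (Pdgfra). These are bulk libraries, so a change in every cell and a change in the share of cells cannot be told apart. Whether the exit from the naive state plays a part in the Hox values below was not tested.

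Each genotype was first compared with itself, day 2 against day 0, with limma over all genes. A Hox gene was called at an adjusted p under 0.05 in 1 of the 4 comparisons: Hoxa13 fell in DNMT_WT, where 0.872% of all genes were called. Its levels were 0.77, 0.33 and 0.80 at day 0 and -0.29, 0.06 and -0.63 at day 2. The day 2 values all lay below the day 0 values, and the change was -0.92 ± 0.20 (SE, adjusted p = 0.0236). The other genotypes changed by -0.12 (TET_WT), 0.22 (TET_KO) and -0.06 (DNMT_KO). The call was lost on the values as deposited, with limma voom, with only the compared groups in the fit, and without any 1 of 4 libraries (replicates 1 and 3 of either day). Of the 10 HoxA genes 9 had an estimate below 0 in DNMT_WT (median -0.49). Hoxa11, a gene of the forearm and uterus, had the largest estimate there, -0.99 ± 0.34 (SE, adjusted p = 0.227), from 0.52, -0.06 and 0.59 at day 0 to -0.61, -1.06 and -0.24 at day 2, without overlap.

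In the other 3 genotypes no Hox gene passed. In TET_WT 0.266% of all genes were called, and 5 of 38 Hox genes had an unadjusted p under 0.05 (5.66% of all genes; limma voom called 1). The largest estimate was that of Hoxb1, a hindbrain gene, with 0.67 ± 0.27 (SE, adjusted p = 0.665). Its levels went from -0.29, -0.10 and -0.15 to 0.54, 0.63 and 0.27 without overlap. In TET_KO 0.218% of all genes were called, and 3 Hox genes had an unadjusted p under 0.05 (7.71% of all genes; limma voom called 0). There Hoxb9 had the largest estimate, -0.74 ± 0.23 (SE, adjusted p = 0.253). In DNMT_KO 0.521% of all genes were called, and 12 Hox genes had an unadjusted p under 0.05 (10.3% of all genes; limma voom called 0). Hoxc10, a gene of the lumbar spine and its motor neurons, had the largest estimate, -1.18 ± 0.29 (SE, adjusted p = 0.0653). Its day 0 levels were 0.72, -0.03 and 0.43 and its day 2 levels -0.06, -0.70 and -1.64, with replicate 3 of day 2 far the lowest. The median change of the 38 genes was 0.07 in TET_WT, -0.04 in TET_KO, -0.02 in DNMT_WT and -0.08 in DNMT_KO, against 0 for all genes.

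Taking the 4 genotypes together, a comparison added after these results were seen, 4 Hox genes fell and 1 rose from day 0 to day 2. These are 10.5% and 2.63% of the 38, beside 3.23% of all genes that fell and 1.84% that rose. The genes that fell were Hoxb9, Hoxa9, Hoxc13 and Hoxc5, and the gene that rose was Hoxb3, an anterior gene of the hindbrain. All 5 calls were lost on the values as deposited without quantile normalisation, where limma called 147 genes up and 455 down in all.

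Hoxb9 had day 0 levels of 1.05, 1.13 and 0.74 in TET_WT, 0.99, 0.89 and 0.66 in TET_KO, 0.63, 0.30 and 1.01 in DNMT_WT and 0.99, 1.30 and 1.31 in DNMT_KO. At day 2 the levels were 0.81, 0.34 and 0.48 in TET_WT, -0.02 and 0.24 in TET_KO, 0.13, -0.51 and 0.22 in DNMT_WT and 0.51, 0.47 and 0.97 in DNMT_KO. The days overlapped in TET_WT and did not in the other 3 genotypes. The mean change was -0.61 ± 0.10 (SE, adjusted p = 0.000486), with estimates of -0.43, -0.74, -0.70 and -0.55 by genotype in that order. Hoxb3 moved the other way. Its day 0 levels were -0.30, -0.39 and -0.63 in TET_WT, -0.52, -0.66 and -0.30 in TET_KO, -0.49, -0.47 and -0.45 in DNMT_WT and -0.57, -0.55 and -0.57 in DNMT_KO. At day 2 they were 0.11, -0.05 and -0.05 in TET_WT, -0.21 and 0.10 in TET_KO, -0.15, -0.49 and -0.29 in DNMT_WT and -0.35, -0.12 and -0.20 in DNMT_KO. Day 2 was above day 0 without overlap in 3 genotypes, with overlap in DNMT_WT, and the mean change was 0.34 ± 0.07 (SE, adjusted p = 0.00292).

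Hoxa9 fell by a mean of 0.52 ± 0.13 (SE, adjusted p = 0.0173), with estimates of -0.32, -0.43, -0.46 and -0.86. Its levels went from 0.50, 0.09 and 0.30 to -0.31, -0.18 and 0.02 in DNMT_WT and from 0.58, 0.70 and 0.73 to -0.68, -0.42 and 0.52 in DNMT_KO, without overlap in either. They overlapped in TET_WT (1.06, 1.23 and 0.70 to 0.70, 0.62 and 0.72) and TET_KO (0.51, 0.68 and 0.52 to -0.30 and 0.58). Without replicate 1 of TET_KO at day 2 the change was -0.41 (adjusted p = 0.0986). Hoxc13 changed by -0.32 ± 0.09 (SE, adjusted p = 0.0234). Its levels went from 0.63, 0.37 and 0.77 to 0.32, 0.36 and 0.30 in TET_WT, from 0.50, 0.63 and 0.71 to 0.16, 0.01 and 0.17 in DNMT_WT and from 0.55, 0.73 and 0.61 to 0.21, -0.14 and 0.42 in DNMT_KO. These 3 genotypes showed no overlap of days, while TET_KO did (0.56, 0.75 and 0.54 to 0.87 and 0.22). Hoxc13 was not called without replicate 3 of TET_KO at day 2 (adjusted p = 0.124). Hoxc5, a central gene, changed by -0.51 ± 0.14 (SE, adjusted p = 0.0347), with estimates of -0.45, -0.55, -0.29 and -0.77. The levels in DNMT_KO went from 0.74, 0.66 and 0.75 to -0.23, -0.06 and 0.12 and in TET_WT from 0.75, 0.50 and 0.76 to 0.41, 0.11 and 0.13, both without overlap. In TET_KO (0.92, 1.18 and 0.33 to 0.43 and 0.09) and DNMT_WT (0.40, 0.74 and 0.90 to 0.28, 0.53 and 0.37) the days overlapped. The call of Hoxc5 was lost when any 1 of 15 of the 23 libraries was left out.

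The clusters differed in the sign of the estimates in this comparison. In HoxB 9 of 10 were above 0 (median 0.29; 8 of 10 with limma voom), all but Hoxb9. Hoxb1 changed by 0.44 ± 0.14 (SE, adjusted p = 0.0663), Hoxb2 by 0.36 ± 0.13 (SE, adjusted p = 0.132), Hoxb4 by 0.34 ± 0.14 (SE, adjusted p = 0.218) and Hoxb7 by 0.33 ± 0.11 (SE, adjusted p = 0.0699). None of these 4 passed in that fit. Hoxb7 did with the median of each chromosome set to 0 (adjusted p = 0.047) and with the higher 50% of genes (adjusted p = 0.0279), and Hoxb1 with the higher 50% of genes (adjusted p = 0.0322) and with limma voom (adjusted p = 0.0325). The others of HoxB stood at Hoxb5 0.26, Hoxb6 0.20, Hoxb8 0.17 and Hoxb13 0.03. In HoxC all 9 estimates were below 0 under every scaling run (median -0.17). Beside the called Hoxc13 and Hoxc5 they were Hoxc12 -0.36, Hoxc11 -0.17, Hoxc10 -0.40, Hoxc9 -0.05, Hoxc8 -0.16, Hoxc6 -0.16 and Hoxc4 -0.08, none of which passed, though limma voom called Hoxc12 (adjusted p = 0.0379). In HoxA 6 of 10 were below 0 (median -0.07), and in HoxD 7 of 9 (median -0.12). The HoxD estimates were Hoxd13 -0.12, Hoxd12 -0.04, Hoxd11 0.00, Hoxd10 -0.11, Hoxd9 -0.13, Hoxd8 -0.21, Hoxd4 -0.13, Hoxd3 -0.13 and Hoxd1 0.23. Those of HoxA beside Hoxa9 were Hoxa13 -0.22, Hoxa11 -0.31, Hoxa10 -0.22, Hoxa7 -0.02, Hoxa6 0.10, Hoxa5 -0.13, Hoxa4 0.07, Hoxa3 0.01 and Hoxa2 0.08. By position the medians were 0.08 for anterior, -0.02 for central and -0.19 for posterior genes, of which 14 of 16 were below 0. Over all 38 genes 23 were below 0 (median -0.10), and 46.4% of all genes were. Genes of one cluster share tiles, libraries and chromosome, so these counts are a description.

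**Figure D3:**
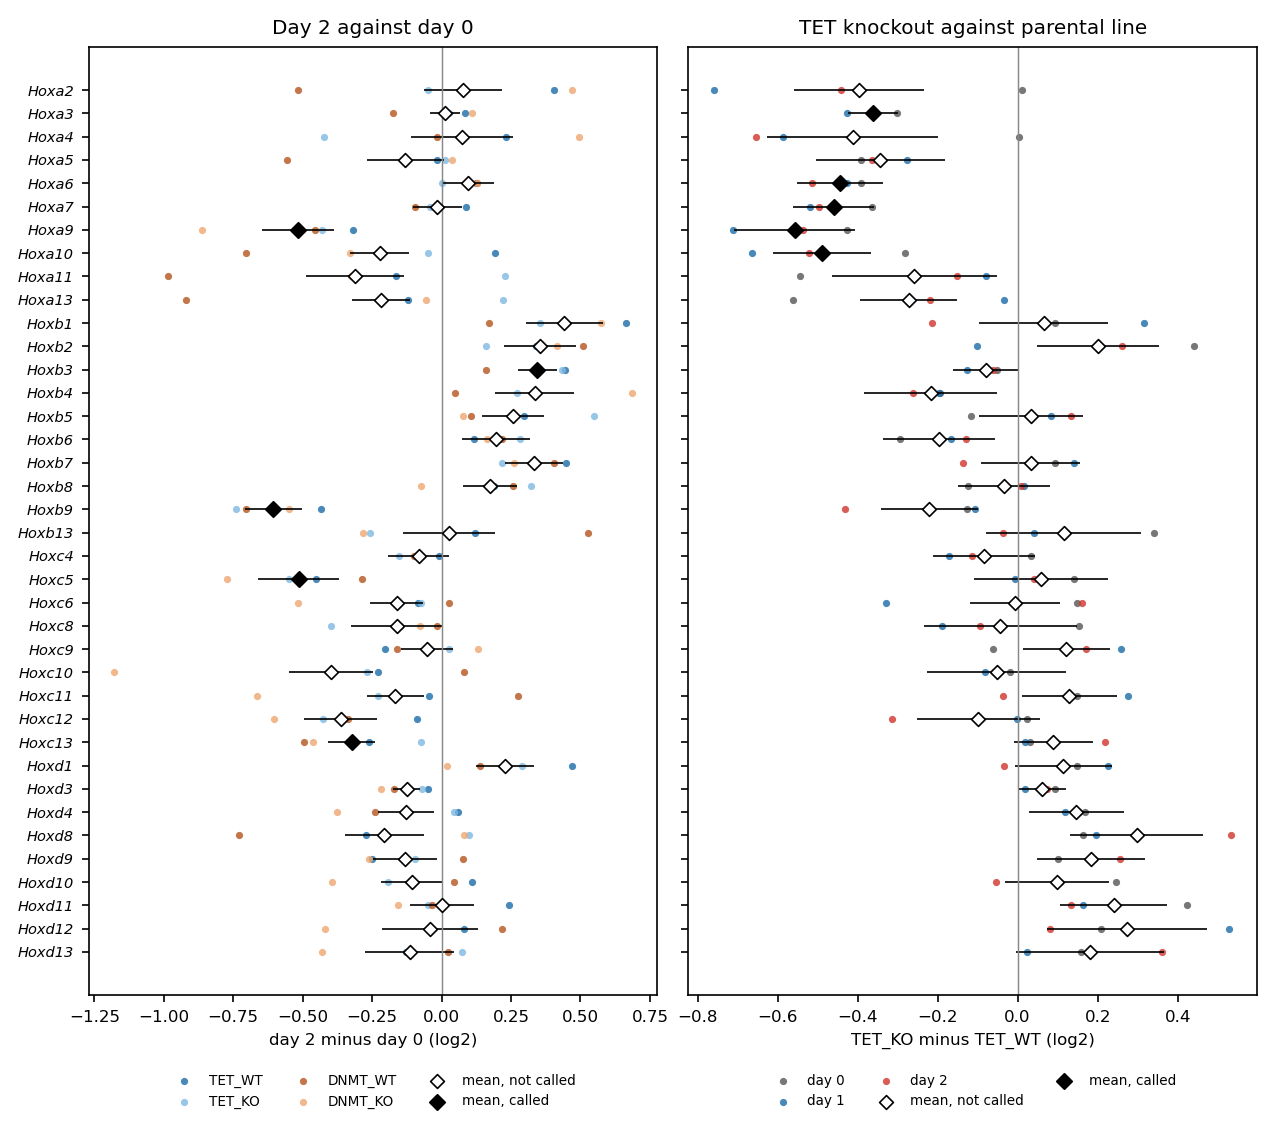
Changes of the 38 described Hox genes in log2 units. The left panel gives day 2 minus day 0, with a dot per genotype and a diamond for the mean of 4 ± 1 SE, filled where called, and the right panel gives TET_KO minus TET_WT with a dot per day and the same diamond. On the left Hoxb9 (-0.61) and Hoxb3 (0.34) stand on opposite sides of 0, and on the right the 10 HoxA diamonds are all below 0.

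Between TET_KO and TET_WT, 1 gene was called on 1 of the 3 days: Hoxa3, needed for thymus and parathyroid, at day 1, when 2.1% of all genes were called. Its levels were 0.64, 0.47 and 0.56 in TET_WT and 0.13, 0.20 and 0.06 in TET_KO, without overlap, and the difference was -0.43 ± 0.10 (SE, adjusted p = 0.0245). The call was lost with chromosome medians set to 0, with only the compared groups in the fit, and without any 1 of 4 libraries (replicates 1 and 3 of either genotype). Days 0 and 2 gave the same order, 0.40, 0.44 and 0.28 against 0.05, 0.15 and 0.02 at day 0 and 0.57, 0.42 and 0.38 against -0.09 and 0.29 at day 2. No Hox gene was called at day 0 (1.82% of all genes were) or at day 2 (0.793%). At an unadjusted p under 0.05 there were 4 Hox genes at day 0 (12.5% of all genes) and 4 at day 2 (9.32%), and limma voom called 1 at each of these days and 4 at day 1. The largest estimates were -0.56 ± 0.20 (SE, adjusted p = 0.187) for Hoxa13 at day 0, -0.76 ± 0.27 (SE, adjusted p = 0.187) for Hoxa2 at day 1 and -0.65 ± 0.40 (SE, adjusted p = 0.697) for Hoxa4 at day 2. Hoxa13 stood at 0.98, 0.72 and 0.71 in TET_WT and -0.04, 0.30 and 0.46 in TET_KO at day 0. Hoxa2, which patterns the hindbrain and the branchial arches, stood at 0.88, 0.17 and 0.92 against -0.06, -0.02 and -0.24 at day 1. For Hoxa4 at day 2 the values 0.35, 0.53 and 0.07 in TET_WT overlapped -1.11 and 0.44 in TET_KO, while those of Hoxa13 and Hoxa2 did not.

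Over the 3 days together, again a comparison added after the single days were seen, 5 Hox genes were lower in TET_KO and none higher with all groups in the fit. That is 13.2% of the 38 lower, beside 5.7% of all genes lower and 2.62% higher. All 5 lay in HoxA: Hoxa3 (difference ± SE -0.36 ± 0.06, adjusted p = 0.000278), Hoxa6 (-0.44 ± 0.11, adjusted p = 0.00864), Hoxa7 (-0.46 ± 0.10, adjusted p = 0.00355), Hoxa9 (-0.56 ± 0.15, adjusted p = 0.02) and Hoxa10 (-0.49 ± 0.12, adjusted p = 0.011). Hoxa6 and Hoxa7 pattern the thoracic skeleton. Hoxa6 stood at 0.82, 0.93 and 0.67 in TET_WT and 0.39, 0.63 and 0.23 in TET_KO at day 0, at 0.98, 0.81 and 1.09 against 0.34, 0.65 and 0.61 at day 1, and at 0.96, 0.86 and 0.96 against 0.18 and 0.65 at day 2. The genotypes did not overlap on any of the days, as with Hoxa3 and Hoxa9. Hoxa9 stood at 1.13, 0.81 and 0.63 against 0.59, -0.09 and -0.06 at day 1. Hoxa7 overlapped at day 0 (0.76, 0.40 and 0.86 against 0.33, 0.41 and 0.18) but not at day 1 (0.84, 0.63 and 1.05 against 0.05, 0.52 and 0.39) or day 2 (0.72, 0.72 and 0.85 against 0.08 and 0.46). Hoxa10, a gene of the lumbar spine and uterus, did likewise: 0.63, 0.67 and 0.62 against 0.15, 0.73 and 0.21 at day 0, 1.06, 0.91 and 0.82 against 0.33, 0.28 and 0.18 at day 1 and 0.96, 0.88 and 0.67 against 0.29 and 0.34 at day 2. Without replicate 1 of TET_KO at day 2 the calls of Hoxa6 and Hoxa9 were lost. Limma voom called Hoxa5 (adjusted p = 0.0387) and Hoxa13 (adjusted p = 0.038) lower as well.

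The level of the whole chromosome moved with this result. Chromosome 6 was compared with the genome as the log2 ratio of mean reads per tile, outside the 10% most accessible tiles. That ratio was 0.257, 0.286 and 0.242 in TET_WT at days 0, 1 and 2. It was 0.0627, 0.0663 and 0.0685 in TET_KO, and between -0.0712 and 0.0519 in the DNMT genotypes. With the median gene value of each chromosome set to 0, the 10 HoxA estimates were still all below 0. Their median moved from -0.40 to -0.25, and no Hox gene was called. With that setting limma called 795 genes higher and 475 lower in all, against 1297 and 2825 without it. The loss of the Hox calls therefore came with a drop in lower calls over all genes. The DNA copy number of chromosome 6 was not measured here, and its part in the result was not tested. Marker genes also differed between TET_KO and TET_WT over the 3 days: 4 of 10 naive, 2 of 8 formative, 1 of 7 primitive endoderm (Gata4) and 1 of 6 neuroectoderm genes (Sox1) were lower and none higher, and their part was not tested. Of these, Klf5, Tdh, Otx2, Zic2 and Gata4 lie on chromosome 14, Zfp42 and Sox1 on chromosome 8 and Nanog on chromosome 6. The part of chromosome level in these marker differences was not tested either. In HoxD all 9 estimates were above 0 (0.06 to 0.30, median 0.18), and none was called with all groups in the fit. With only the TET groups in the fit Hoxd11 was called higher (0.24, adjusted p = 0.0496). Of the 9 HoxD estimates 6 were above 0 as deposited (median 0.04) and 8 of 9 with chromosome medians set to 0 (median 0.09). HoxD lies on chromosome 2, which also stood higher in TET_KO by the ratio used for chromosome 6. It was 0.066, 0.118 and 0.050 in TET_WT at days 0, 1 and 2, and 0.154, 0.145 and 0.173 in TET_KO. The part of chromosome 2 in the HoxD estimates was not tested. HoxB and HoxC had medians of 0.00 and -0.01, but as deposited 9 of 10 and 9 of 9 were below 0, where the median of all genes was -0.06.

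Between DNMT_KO and DNMT_WT no Hox gene was called. No gene at all was called at day 0 (0%) or day 2 (0%), and 0.476% of all genes at day 1, none of them a Hox gene. At an unadjusted p under 0.05 there were 5 Hox genes at day 0 (5.81% of all genes), 6 at day 1 (11.9%) and 8 at day 2 (6.59%), and limma voom called no Hox gene on any of the days. The largest estimates were 0.76 ± 0.32 (SE, adjusted p = 0.804) for Hoxb13 at day 0, -0.79 ± 0.27 (SE, adjusted p = 0.223) for Hoxa2 at day 1 and -0.85 ± 0.29 (SE, adjusted p = 0.589) for Hoxc10 at day 2. Hoxb13, a gene of the tail end and prostate, overlapped at day 0 (-0.21, -0.66 and -0.59 against -0.27, 0.85 and 0.24). Hoxa2 did not at day 1 (0.54, 0.15 and 0.07 against -0.20, -0.91 and -0.49), and Hoxc10 did at day 2 (-0.25, -0.04 and 0.44 against -0.06, -0.70 and -1.64). Over the 3 days together the estimates ran from -0.40 to 0.35 (median 0.02), with no Hox gene called beside 0.0343% of all genes, and 7 of 38 at an unadjusted p under 0.05 (8.52% of all genes; limma voom called 0). The 95% intervals of these differences reached down to -0.71 (Hoxa2) and up to 0.63 (Hoxa5). The change from day 0 to day 2 was also compared between knockout and parent. Neither pair gave a called gene (0% in both). At an unadjusted p under 0.05 there were 0 Hox genes for TET (3.15% of all genes) and 6 for DNMT (5.16%), and limma voom called none. The largest such differences were -0.66 ± 0.53 (SE, adjusted p = 1) for Hoxa4 and -1.26 ± 0.41 (SE, adjusted p = 0.878) for Hoxc10. For Hoxa13, called in DNMT_WT alone, the difference was 0.86 ± 0.29 (SE, adjusted p = 0.878).

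Single tiles were fitted in the same way. Of the 246 Hox tiles 164 were tested, among 186253 tiles chosen for a high mean or for holding a gene end. From day 0 to day 2 over the 4 genotypes, 7 Hox tiles fell (4.27% of 164) and 3 rose (1.83%), near the shares over all tested tiles of 4.68% and 2.2%. The lowest adjusted p belonged to 2 adjoining tiles between Hoxc13 and Hoxc12. The first, chr15:102930001-102932000, changed by -1.39 ± 0.24 (SE, adjusted p = 7.12e-05) and the second, chr15:102932001-102934000, by -1.23 ± 0.24 (SE, adjusted p = 0.000425). Reads in the first were 83, 32 and 50 at day 0 against 20, 10 and 19 at day 2 in TET_WT, 28, 32 and 12 against 14 and 11 in TET_KO, 17, 14 and 17 against 2, 8 and 6 in DNMT_WT, and 28, 17 and 18 against 7, 6 and 9 in DNMT_KO. The libraries differ in depth, so the reads show the counting error rather than the change. On the normalised log2 RPKM scale the first tile went from 1.36, 1.05 and 1.22 to 0.24, -0.41 and -0.10 in TET_WT and from 1.66, 0.88 and 0.88 to -0.83, -0.65 and -0.03 in DNMT_KO. It went from 0.77, 0.83 and 0.40 to -2.08, 0.07 and -0.41 in DNMT_WT and from 0.95, 1.38 and 0.37 to 0.49 and -0.92 in TET_KO. The days overlapped in TET_KO and in no other genotype. For the second tile they did not overlap in any genotype, with 1.32, 1.41 and 1.03 to 0.14, -0.29 and -0.39 in TET_WT and 0.88, 1.12 and 0.26 to 0.16 and -0.16 in TET_KO. In DNMT_WT it went from 0.69, 0.30 and 0.83 to 0.13, -1.88 and -0.01 and in DNMT_KO from 1.38, 0.00 and 0.88 to -0.41, -0.65 and -1.25. Neither tile was called in a single genotype.

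The other tiles that fell lay in or near genes of all 4 clusters. A tile at the 3′ end of Hoxa9 (chr6:52222001-52224000) changed by -0.99 ± 0.20 (SE, adjusted p = 0.000625) and one in Hoxb9 (chr11:96274001-96276000) by -1.04 ± 0.21 (SE, adjusted p = 0.000794). A tile between Hoxb13 and Hoxb9 that also overlaps Gm53 (chr11:96250001-96252000) changed by -0.74 ± 0.17 (SE, adjusted p = 0.00365). It went from 1.06, 1.16 and 1.26 to 0.94, 0.24 and 0.74 in TET_WT and from 1.39, 1.27 and 0.81 to 0.40 and 0.56 in TET_KO. The days did not overlap in these or in DNMT_WT (1.07, 1.24 and 0.70 to -0.02, -0.13 and 0.31) and DNMT_KO (1.83, 1.23 and 1.54 to -0.11, 1.22 and 1.02). A tile in Hoxd3 (chr2:74734001-74736000) changed by -1.01 ± 0.27 (SE, adjusted p = 0.0146), but by -0.65 (adjusted p = 0.151) without replicate 3 of TET_KO at day 2. The tile with the start of Hoxc5, which also holds Mir615 (chr15:103014001-103016000), changed by -0.63 ± 0.17 (SE, adjusted p = 0.0167). All 3 tiles that rose held a start site in HoxB. These were the starts of Hoxb4 (chr11:96318001-96320000), a gene known for expanding blood stem cells and printed above, with 0.64 ± 0.18 (SE, adjusted p = 0.0161), of Hoxb7 (chr11:96284001-96286000) with 0.72 ± 0.21 (SE, adjusted p = 0.0234), and of Hoxb2 (chr11:96350001-96352000) with 1.20 ± 0.33 (SE, adjusted p = 0.0176). The Hoxb4 tile stood at -0.99, -0.17 and 0.24 at day 0 and 0.96, 1.02 and 0.56 at day 2 in DNMT_KO, without overlap, and overlapped in the other 3 genotypes. The Hoxb7 tile stood at -0.39, -0.70 and -0.63 at day 0 against 0.82, 0.62 and 0.27 in TET_WT, the one genotype without overlap. The Hoxb2 tile is shared with the antisense gene Hoxb3os, and its call was lost without replicate 1 of TET_KO at day 2. The Hoxb7 call was lost without any 1 of 4 libraries. All 3 of these calls, and those of the Hoxd3 and Hoxc5 tiles, were lost without the filter on tiles, and those of Hoxb4 and Hoxb7 also on the values as deposited.

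**Figure D4:**
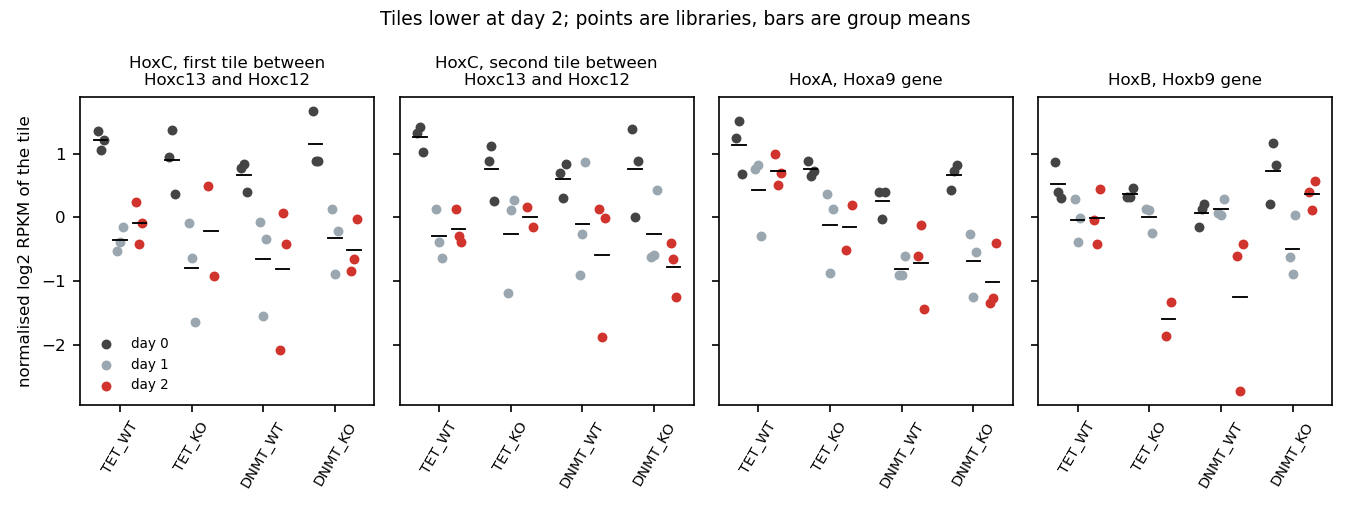
Normalised log2 RPKM (y axis) of the 4 Hox tiles with the lowest adjusted p for day 2 against day 0, by genotype and day (x axis); points are libraries and bars group means. In the pair of tiles between Hoxc13 and Hoxc12 day 2 points lie under day 0 points, apart from an overlap in TET_KO in one of them, and the changes of the 4 tiles run from -0.99 to -1.39.

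In single genotypes 1 tile was called in TET_KO from day 0 to day 2 (0.673% of all tested tiles), 2 in DNMT_WT (1.47%), 2 in DNMT_KO (1.5%) and none in TET_WT (0.472%; 10 Hox tiles, beside 6.57% of all, at an unadjusted p under 0.05). In TET_KO it was the Hoxb9 tile, with -1.96 ± 0.46 (SE, adjusted p = 0.0272), from 0.31, 0.32 and 0.46 to -1.86 and -1.33. That call was lost when any 1 of the 5 libraries was left out. In DNMT_WT the start tiles of Hoxa13 (chr6:52260001-52262000, -1.23 ± 0.30, adjusted p = 0.0221) and Hoxa11 (chr6:52244001-52246000, -1.66 ± 0.42, adjusted p = 0.0296) fell. The first holds the CpG-rich promoter printed above and went from 1.19, 0.72 and 1.46 to -0.18, 0.07 and -0.20. Its call was lost without any 1 of 4 of the 6 libraries, and that of Hoxa11 without any 1 of 5. The Hoxa11 tile, which the antisense gene Hoxa11os shares, went from 0.28, -0.23 and 0.56 to -1.58, -1.35 and -1.44. In DNMT_KO the Hoxa9 tile fell by 1.66 ± 0.38 (SE, adjusted p = 0.0144), from 0.43, 0.72 and 0.82 to -1.35, -1.26 and -0.41, and its call was lost without any 1 of 4 of the 6 libraries. The start tile of Hoxc10 (chr15:102966001-102968000) changed by -1.50 ± 0.37 (SE, adjusted p = 0.027), from 1.88, 0.72 and 1.54 to 0.79, 0.12 and -1.25. Its call was lost without any 1 of 3 of the 6 libraries, and without replicate 3 of day 2 it changed by -0.93 (adjusted p = 0.293). None of these 5 calls held without the filter on tiles.

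Between genotypes, no Hox tile was called on a single day. For TET_KO against TET_WT 0.0746% of all tested tiles were called at day 0, 0.179% at day 1 and 0.0585% at day 2. At an unadjusted p under 0.05 there were 7, 9 and 6 of the 164 Hox tiles (8.52%, 8.64% and 6.84% of all). For DNMT_KO against DNMT_WT 0%, 0.152% and 0.00805% were called, and 9, 16 and 18 Hox tiles had an unadjusted p under 0.05 (5.48%, 10.8% and 7.91% of all). Limma voom was run on genes only. Over the 3 days 1 Hox tile was lower in TET_KO (1.81% of all) and none higher (0.898%). This was chr6:52224001-52226000 in Hoxa9, with -0.71 ± 0.20 (SE, adjusted p = 0.0459), and its call was lost when any 1 of 11 of the 17 libraries was left out. It stood at 1.26, 0.86 and 1.04 in TET_WT and 0.44, 0.40 and -0.05 in TET_KO at day 1. Over the 3 days in DNMT_KO none was called (0.00644% of all), and 10 had an unadjusted p under 0.05 (7.87% of all).

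A second measure set each cluster against its own surroundings: the log2 ratio of mean accessibility in the cluster to that of the 200 kb on each side, which does not depend on the scaling of the library or the level of the chromosome. Over the 35 libraries its median was 0.839 in HoxA (0.465 to 1.21), 0.299 in HoxB (0.126 to 0.497), 0.385 in HoxC (-0.0162 to 0.710) and 1.06 in HoxD (0.663 to 1.48). These levels depend on the flank width: with 100 and 500 kb the HoxC median was 0.669 and 0.148, and the HoxB median 0.408 and 0.0948. HoxC was lower at day 2 than at day 0 in every genotype, without overlap. Its mean went from 0.505 ± 0.0453 (SD) to 0.316 ± 0.0335 in TET_WT and from 0.530 ± 0.0698 to 0.314 ± 0.114 in TET_KO, where day 2 had 2 libraries. It went from 0.476 ± 0.0783 to 0.232 ± 0.0787 in DNMT_WT and from 0.60 ± 0.186 to 0.135 ± 0.178 in DNMT_KO. With 3 against 3, or with 2 against 3 as in TET_KO, an exact 2-sided permutation test cannot go below p = 0.1. Each of the 4 gave that value, and adjusted over the 40 comparisons of cluster and group it was 0.364. With 2 against 3, groups without overlap can also give 0.2, as HoxD did in TET_KO from day 0 to day 2. The days stayed apart with flanks of 100 or 500 kb. Leaving out a library cannot make groups overlap that did not overlap before, so it gives no check of this. The HoxC ratio includes both tiles between Hoxc13 and Hoxc12, and their share in the difference was not tested. The ratio was not computed for regions outside the Hox clusters, so how often such a pattern occurs elsewhere is not known here.

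In HoxD the ratio was higher in both knockouts than in their parents at day 0, 1.34 ± 0.129 (SD) against 1.08 ± 0.0775 for TET and 1.31 ± 0.0399 against 1.05 ± 0.150 for DNMT, without overlap (exact permutation p = 0.1 each, adjusted 0.364). The same differences overlapped at day 1 (0.0256 for TET and 0.0417 for DNMT) and day 2 (-0.0723 and 0.0334). From day 0 to day 2 it changed by -0.434 in DNMT_KO (exact permutation p = 0.1) and by -0.209 in TET_KO (exact permutation p = 0.2), also without overlap. The HoxA ratio was 0.998 ± 0.0282 (SD) in TET_WT and 0.922 ± 0.0812 in TET_KO at day 0. It was 0.903 ± 0.0163 against 0.675 ± 0.121 at day 1, and 0.836 ± 0.0439 against 0.876 ± 0.0273 at day 2. Its genotypes did not overlap at day 1 (difference -0.229, exact permutation p = 0.1) and overlapped on the other days, so against its own flanks HoxA showed no lower value in TET_KO at day 2. Both parts of that ratio were lower in TET_KO at day 2. The cluster stood at 1.99-fold over the genome against 2.99-fold in TET_WT, and the flanks at 1.08-fold against 1.67-fold. The ratio at day 2 therefore does not show that the level of HoxA was equal in the genotypes. In all, 13 of the 40 comparisons did not overlap, and none passed after adjustment. The same count was not made for other regions of the genome, so it cannot be read as particular to the Hox clusters.

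**Figure D5:**
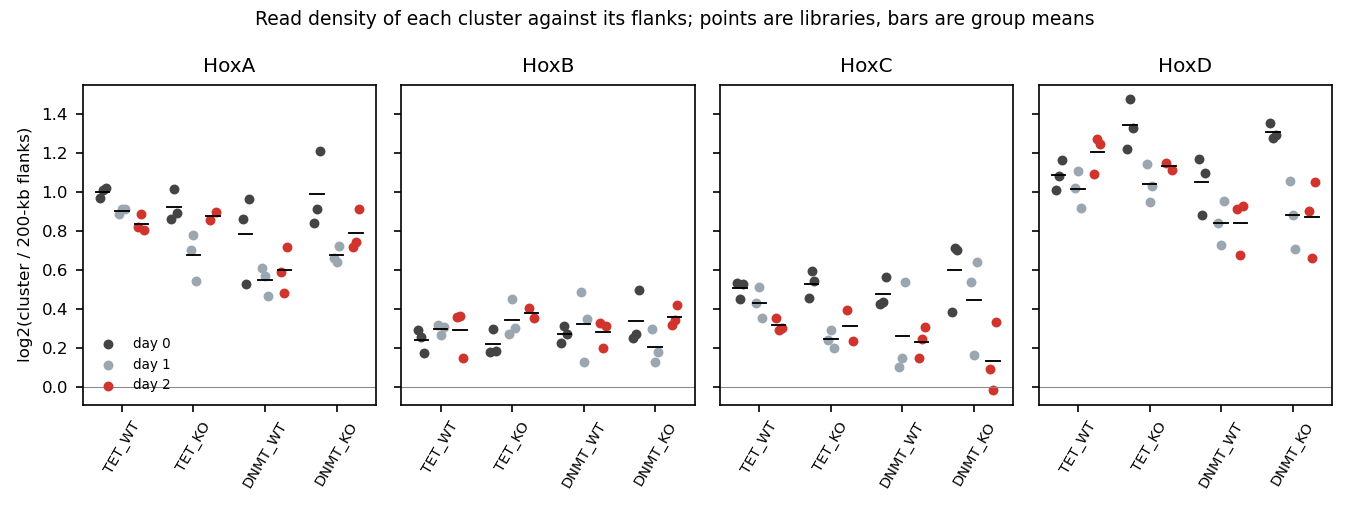
Log2 ratio of each cluster to the 200 kb on either side (y axis) by genotype and day (x axis); points are libraries and bars group means. In the HoxC panel day 2 points lie below day 0 points in every genotype, and DNMT_KO shows the largest gap (0.60 to 0.135).

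Genes that work with or lie beside the Hox clusters were counted in the same comparisons. Over all genes the shares were 1.84% higher and 3.23% lower for the days over the 4 genotypes, and 2.62% higher and 5.7% lower in TET_KO over the 3 days. Of 73 genes within 200 kb of a cluster, 1 rose from day 0 to day 2 over the 4 genotypes (Hoxb3os, 0.45) and 7 fell, among them Mir615 (-0.65), Gm30084 (-0.65) and Calcoco2 (-0.51). Hoxb3os, Mir615 and Gm30528, another gene that fell, share tiles with members. Between TET_KO and TET_WT 10 of the 73 were lower over the 3 days and none higher, 8 of them on chromosome 6, including Mir196b (-0.80), Halr1 (-0.49) and Skap2 (-0.46). Of these 8, Hoxaas2, LOC115490409, 5730596B20Rik, Hoxaas3, Gm52902 and Mir196b share tiles with HoxA members, so they largely repeat the HoxA result. Halr1 and Skap2 share no tile with a member. On a single day Halr1, a non-coding gene beside HoxA, was lower in TET_KO at day 2 (-1.01 ± 0.17, adjusted p = 0.00428). It lies in the flanks used for the HoxA ratio above. Of 25 Polycomb and Trithorax genes, whose products keep Hox genes silent or active, Eed (-0.47) and Mtf2 (-0.40) fell and Phc1 (0.35) rose over the 4 genotypes. Among the single genotypes these calls came from DNMT_WT (Eed -0.58, Mtf2 -0.51, Phc1 0.57) and, for Eed, TET_KO (-0.61). Phc1, on chromosome 6, was lower in TET_KO than in TET_WT over the 3 days (-0.30).

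Of 9 TALE cofactors, which bind DNA together with Hox proteins, none was called from day 0 to day 2 (2 at an unadjusted p under 0.05; limma voom called 0), and Pbx4, on chromosome 8, was lower in TET_KO over the 3 days (-0.28). Among 8 ParaHox and Evx genes, the closest relatives of the clusters, Gsx1 rose (0.39) and Cdx1 fell (-0.44) by day 2, while Cdx2 was higher (0.45) and Cdx1 lower (-0.28) in TET_KO. Of 18 retinoic acid genes Rxrg (0.23) and Stra6 (0.26) rose by day 2, and the receptors Rara (-0.31, chromosome 11) and Rarb (-0.42, chromosome 14) were lower in TET_KO. Of 23 genes of other homeobox clusters, 5 rose by day 2 and none fell (1.84% and 3.23% of all genes): Six6 (0.47), Irx3 (0.42), Irx5 (0.39), Nkx2-9 (0.39) and Six4 (0.23). In TET_KO 6 of the 23 were higher and 2 lower over the 3 days (2.62% and 5.7% of all genes). Six3 was higher on each day (0.55, 0.49 and 0.52 at days 0, 1 and 2, with adjusted p of 0.00551, 0.0106 and 0.0310), and Nkx2-9 at day 0 (0.90, adjusted p = 0.0294). Between DNMT_KO and DNMT_WT over the 3 days none of these lists held a called gene (3 Polycomb and Trithorax, 2 other homeobox, 2 ParaHox and Evx, 1 retinoic acid, 1 TALE and 1 neighbouring gene had an unadjusted p under 0.05, and limma voom called 0).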

How the data were processed

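The submitters' processing notes list the build GRCm38 and the tools Bowtie2 2.4.1, cutadapt 2.3 and Trim Galore 0.6.5. The authors deposited log2 RPKM values of 1362779 tiles of 2 kb in 35 libraries. Those values are whole reads to within 0.01 read for nearly all tiles, and an empty tile is entered as 0.9 read. Groups came from the labels. Gene values were the mean linear RPKM over all overlapping tiles plus 0.1, in log2, quantile-normalised over 49550 genes and fitted with limma 3.58.1 (R 4.3.3, mean-variance trend, 12 groups, 2-sided, Benjamini-Hochberg over all genes). Tile values were fitted likewise over 186253 tiles. The fits were tested on simulated data. Alternatives were the scaling, pseudocount, filter, voom on recovered reads with TMM, groups in the fit, a block for the replicate number, flank width and leaving out each library. The 3 pooled comparisons were added after seeing the data. Members and lists were chosen with earlier results of these data known.

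Named in full were members called in a comparison, the highest and lowest of each cluster and the largest change per comparison. Named tiles were up to 5 called per comparison, and the rest are given because they fell in a pooled count. One gene that meets the naming rule is not reported here. RefSeq promoters (GRCm38.p6) were matched by symbol.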

Additional observations from a re-analysis of the deposited data

How the results depend on the processing

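Counts of called Hox genes changed with the scaling. On the values as deposited they were 0 for DNMT_WT at day 2 against day 0 (from 1), 2 for TET_KO against TET_WT at day 1 (from 1) and 0 for day 2 against day 0 over the 4 genotypes (from 5). With chromosome medians set to 0, day 1 in TET gave 0 and the 3 days together 0 (from 5). With limma voom TET_WT at day 2 against day 0 gave 1 (from 0), DNMT_WT 0, and TET_KO against TET_WT 1 at day 0, 4 at day 1 and 1 at day 2. The pooled days gave 7 (2 higher and 5 lower) with limma voom and 7 with the higher 50% of genes, and the pooled TET comparison 7 with limma voom and 6 with only the TET groups, each from 5. Over all genes the pooled days gave 1242 higher and 1994 lower with limma voom, from 913 and 1598. The higher 50% gave 1079 and 1632 of 24775 genes. The pooled TET comparison gave 2574 higher and 3749 lower with limma voom, from 1297 and 2825. It gave 1691 and 3196 with only the TET groups. Totals over all features are not given here for single comparisons or tiles in these settings. With only the compared groups in the fit, DNMT_WT at day 2 gave 0 and day 1 in TET 0, and with the higher 50% of genes DNMT_KO at day 2 gave 1. Of called Hox tiles, as deposited left 0 in TET_KO at day 2 (from 1), 1 in DNMT_WT (from 2) and 3 in TET over 3 days (from 1). Without a filter there were 0 in TET_KO, 0 in DNMT_WT and 0 in DNMT_KO (from 2) at day 2, 2 in DNMT at day 1 (from 0), 5 for day 2 against day 0 over the 4 genotypes (from 10) and 0 in TET over the 3 days. The last was also 0 with chromosome medians set to 0, and 2 with empty tiles at 0. The cause of these shifts was not tested.

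Same-numbered libraries did not deviate together (correlations of deviations -0.09 to 0.13, over 0.1 in 2 of 28 pairs). With the replicate block the TET count of tiles over the 3 days was 0, the pooled day counts were 5 genes and 11 tiles, and the pooled TET count stayed at 5 genes.

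Leaving out 1 library at a time gave 0 to 1 genes for DNMT_WT and for DNMT_KO at day 2, 0 to 1 for TET and for DNMT at day 1, 3 to 6 for the pooled days (3 without TET_KO day 2 replicate 3) and 3 to 5 for the pooled TET comparison (3 without TET_KO day 2 replicate 1). For tiles it gave 0 to 1 in TET_KO, 0 to 2 in DNMT_WT and DNMT_KO at day 2, 0 to 2 in DNMT at day 1 and 0 to 3 in TET over the 3 days. The cluster-to-flank ratio was 0.715 and 0.994 for HoxA with flanks of 100 and 500 kb, 0.408 and 0.0948 for HoxB, 0.669 and 0.148 for HoxC, and 1.20 for HoxD at 500 kb. At 500 kb the HoxC difference of days was -0.283 in TET_WT and -0.356 in DNMT_WT. Depth limits single tiles, with 5 to 39 reads in the median top-10% tile.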
